A study of Mus musculus with 6 samples.

Results

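Foxj1 and 9 other genes of motile cilia were followed across colonies in which Glis3 or CD133 had been knocked down. The genes are the transcription factor Foxj1, 7 genes of the ciliary axoneme or of its assembly (Rsph1, Rsph9, Cfap43, Cfap69, Cfap70, Dnaaf2 and Dnaaf3), and the transcription factors Rfx2 and Rfx3. They were taken by symbol, 10 of the 11164 genes in the deposited expression table, and every one of the 10 has a value in all 6 libraries. They were chosen by measured values, since a gene had to reach 1 RPKM (reads scaled by transcript length and by library depth) to be listed, and the fall of Foxj1 in the Glis3 knockdown was already known. Levels and fold changes of the 10 genes are therefore given as a description, with standard errors and intervals. Whether a gene passed the threshold set over all genes (called, fell or rose) is also only a description of these libraries, since its choice is not independent of the result.

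The cells were sorted from the pancreas of C57Bl/6 mice aged 2 to 4 months for high surface CD133 (the membrane protein encoded by Prom1) and low CD71, a fraction labelled as pancreatic progenitor cells. They were infected overnight with lentivirus, grown under puromycin in semi-solid medium with Matrigel, RSPO1, nicotinamide, exendin-4, activin B and serum, and collected as primary colonies after 3 weeks. Each group has 2 libraries, numbered 1 and 3. Control colonies (shControl) carried 1 shRNA with no mammalian target, while Glis3 knockdown colonies (shGlis3) and CD133 knockdown colonies (shCD133) carried pools of 5 shRNA clones, so both knockdowns differ from control in the number of shRNAs too. Nothing in the labels ties the libraries to separate animals or cultures. Errors and p-values therefore measure the spread between these libraries only, which may be technical.

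A motile cilium beats because dynein arms, set along outer doublet microtubules, walk on the neighbouring doublet. Radial spokes connect the doublets to a central pair of microtubules and regulate the dyneins, a nexin-dynein complex ties the doublets together, and the dynein arms are assembled in the cytoplasm before they enter the cilium. Foxj1 is the forkhead transcription factor that switches on this set of genes in multiciliated epithelia and at the embryonic node. Rfx factors bind a DNA element called the X-box and act on genes of primary and motile cilia alike. Pancreatic duct and islet cells are known for primary cilia, which are sensory and as a rule do not beat.

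The X-box was searched in RefSeq promoter windows (GRCm38.p6, 250 bases before to 50 after the transcription start) as the letters GTNNC and GNNAC with any 4 bases between them, which reads the same on both strands, and a forkhead element as TGTTTAC on either strand. Windows were matched for 8 of the 10 genes, all but Foxj1 and Rsph1. The last 150 bases of 5 windows are shown, 5′ to 3′. Of these genes, 3 fell with Foxj1 in the Glis3 knockdown (Rsph9, Cfap43 and Cfap69) and 2 were not called there (Cfap70 and Dnaaf2). Windows of Dnaaf3, Rfx2 and Rfx3, which were not called there either, are not shown. Those of Dnaaf3 and Rfx3 held no match. Capitals mark an X-box or forkhead match, and all 5 genes lie on the minus strand.
Rsph9, chr17:46144151-46144300: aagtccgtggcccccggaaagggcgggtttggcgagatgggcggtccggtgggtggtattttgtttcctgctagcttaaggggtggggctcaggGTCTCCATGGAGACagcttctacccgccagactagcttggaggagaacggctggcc
Cfap43, chr19:47837312-47837461: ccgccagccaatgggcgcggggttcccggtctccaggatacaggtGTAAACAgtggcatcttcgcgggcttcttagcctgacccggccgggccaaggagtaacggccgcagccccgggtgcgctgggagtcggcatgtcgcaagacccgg
Cfap69, chr5:5664183-5664332: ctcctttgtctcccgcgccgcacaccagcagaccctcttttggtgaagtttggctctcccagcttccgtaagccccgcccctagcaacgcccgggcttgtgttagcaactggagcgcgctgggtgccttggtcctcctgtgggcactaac
Cfap70, chr14:20452176-20452325: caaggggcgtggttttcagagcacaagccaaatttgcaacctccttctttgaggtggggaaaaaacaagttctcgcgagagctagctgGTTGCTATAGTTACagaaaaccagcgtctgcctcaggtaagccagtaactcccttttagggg
Dnaaf2, chr12:69198380-69198529: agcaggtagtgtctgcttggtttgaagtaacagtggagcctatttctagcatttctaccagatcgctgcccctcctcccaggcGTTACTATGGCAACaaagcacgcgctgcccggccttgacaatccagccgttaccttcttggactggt

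The X-box letters occurred in 4 of the 8 matched windows, those of Rsph9, Cfap70, Dnaaf2 and Rfx2, against 9.6% of tested genes with a window and 7.17% of all 32851 windows. In Rsph9 and Cfap70 the match spans the start site, in Dnaaf2 it lies 4 to 17 bases before it, and in Rfx2 it lies 35 to 48 bases into the transcript. Cfap43 held the only forkhead match among the 8, 49 to 55 bases before the start, against 3.65% of all windows, and it did not overlap an X-box match. Matches were thus present in genes that fell with Foxj1 and in genes that were not called. A match describes letters in a window and shows no binding.

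Each pool lowered its own target. Glis3 measured 26.05 and 24.22 RPKM in control libraries 1 and 3, and 13.31 and 11.96 in the Glis3 knockdown. Prom1 measured 191.25 and 203.42 RPKM in control and 88.03 and 96.00 in the CD133 knockdown. Depth, estimated from the steps of low RPKM values, was 25.8 to 29.2 megareads per library. Of 15 pancreatic duct and progenitor markers, 14 were measured, with a summed level of 7886 to 10481 RPKM. Spp1 made up most of that sum in control (6490.03 and 6732.95 RPKM). The lowest were Nkx6-1 (3.67 to 6.49 RPKM) and Pdx1 (10.22 to 13.3 RPKM). Of 11 acinar markers only Cela1 had a value (0.49 to 1.06 RPKM) and of 7 endothelial and immune markers only Cd68 (5.12 to 6.39 RPKM). The 5 endocrine markers measured, of 9 listed, summed to between 0.97 and 13.33 RPKM. The 8 mesenchymal markers listed had no value under the symbols searched, so they could not be analysed.

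Foxj1 (ENSMUSG00000034227.7, chromosome 11: 116330704 to 116335399, minus strand, GRCm38) was by far the most abundant of the 10 genes and had the largest change in the Glis3 knockdown. It measured 64.78 and 58.09 RPKM in control libraries 1 and 3, 23.76 and 17.49 in the Glis3 knockdown, and 39.54 and 48.54 in the CD133 knockdown. The 3 groups did not overlap, with control highest, the CD133 knockdown between and the Glis3 knockdown lowest. Group means were 61.4 ± 4.73, 44.0 ± 6.36 and 20.6 ± 4.43 RPKM (SD, n = 2 each), which puts the Glis3 knockdown at 33.6% and the CD133 knockdown at 71.7% of control.

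On the log2(RPKM + 1) scale, Foxj1 fell by 1.54 in the Glis3 knockdown against control (SE 0.153, 95% interval -1.91 to -1.18). In the CD133 knockdown its log2 fold change was -0.48 (SE 0.153, interval -0.84 to -0.11), which did not pass the threshold of an adjusted p under 0.05 over all genes tested. It did pass when either Glis3 shRNA library was left out of the fit or when the fit held these 2 groups alone, with the same fold change. Foxj1 was lower by 1.07 in the Glis3 than in the CD133 knockdown (log2 fold change -1.07, SE 0.153, interval -1.43 to -0.70), past that threshold. Both comparisons with control share the control libraries. In colonies measured in bulk, fewer cells with a gene and less of its RNA per cell cannot be told apart, for Foxj1 and for every gene that follows.

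**Figure D1:**
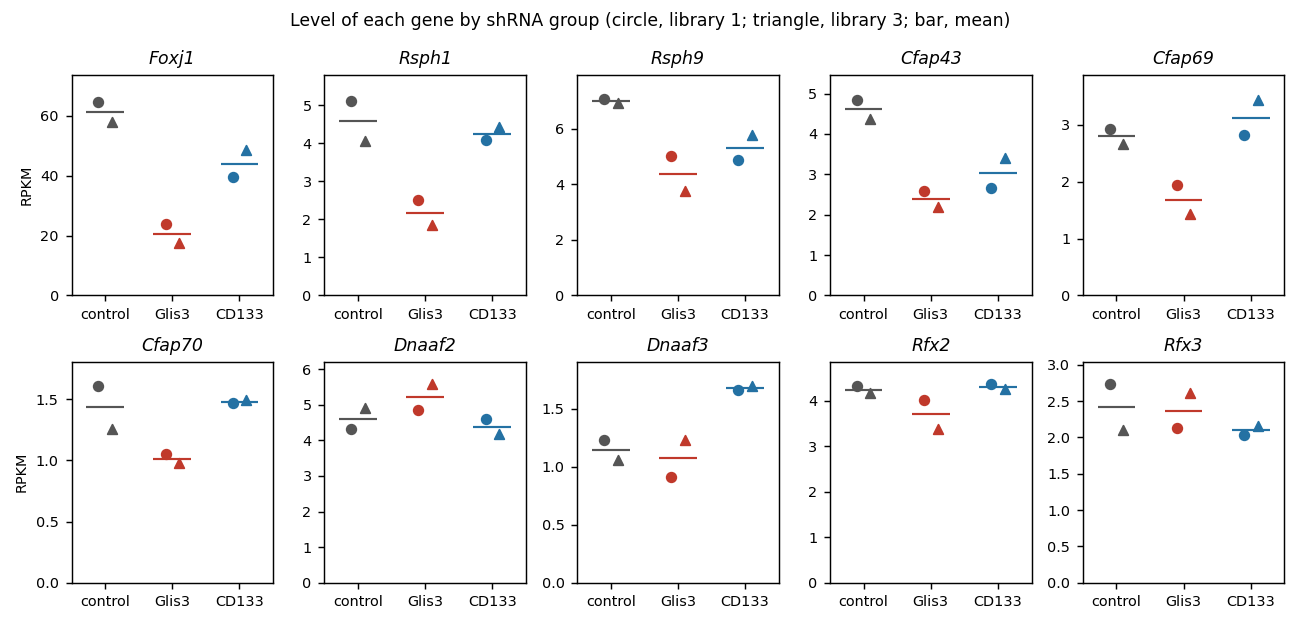
RPKM of each of the 10 genes (vertical axes from 0) in control, Glis3 shRNA and CD133 shRNA colonies, with a circle for library 1, a triangle for library 3 and a bar for the group mean. Foxj1 runs from 17.49 to 64.78 RPKM with no overlap between groups, and in 6 of the other 9 genes both Glis3 shRNA libraries lie below both controls.

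Expression in control colonies spanned a wide range. After Foxj1 came Rsph9 at 7.01 ± 0.085 RPKM, then Dnaaf2 at 4.61 ± 0.41, Cfap43 at 4.61 ± 0.332, Rsph1 at 4.59 ± 0.742 and Rfx2 at 4.24 ± 0.113, 4 genes that did not differ beyond their spread. Below them stood Cfap69 at 2.80 ± 0.191 and Rfx3 at 2.42 ± 0.445, whose libraries overlap, and then Cfap70 at 1.44 ± 0.247 and Dnaaf3 at 1.15 ± 0.12 RPKM (SD, n = 2 for each). At the estimated depth and with exon lengths of GENCODE M21, these levels rest on roughly 55 to 103 reads per library for Dnaaf3, 72 to 188 for Rsph1 and 1307 to 4554 for Foxj1. Exons of Dnaaf2 and Dnaaf3 overlap those of unnamed loci on the opposite strand, those of Dnaaf2 also overlap unnamed loci on the same strand, and the sources used here do not say whether counting used strand.

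The radial spoke head genes Rsph1 and Rsph9 fell in the Glis3 knockdown. Rsph1 (chromosome 17: 31255019 to 31277383) measured 5.11 and 4.06 RPKM in control, 2.51 and 1.84 in the Glis3 knockdown, and 4.07 and 4.43 in the CD133 knockdown. Its Glis3 knockdown libraries lay below all others, while the CD133 knockdown libraries lay within the control range. The log2 fold change against control was -0.82 (SE 0.131) with Glis3 shRNA and -0.08 (interval -0.40 to 0.23) with CD133 shRNA.

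Rsph9 (chromosome 17: 46122035 to 46144216), with its X-box match across the start site, measured 7.07 and 6.95 RPKM in control, 5.03 and 3.75 in the Glis3 knockdown, and 4.87 and 5.78 in the CD133 knockdown. Here both knockdowns lay below control and overlapped each other. Rsph9 fell by 0.58 with Glis3 shRNA (SE 0.124), and its log2 fold change of -0.34 with CD133 shRNA (interval -0.64 to -0.05) did not pass.

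Among the Cfap genes (cilia and flagella associated proteins), Cfap43 and Cfap69 fell in the Glis3 knockdown and Cfap70 did not pass. Cfap43 (chromosome 19: 47736857 to 47919287), an axonemal protein that links inner dynein arms to the doublets, measured 4.84 and 4.37 RPKM in control, 2.59 and 2.19 in the Glis3 knockdown, and 2.65 and 3.41 in the CD133 knockdown. Its groups did not overlap, in the same order as for Foxj1, but the knockdowns nearly met, at 2.59 and 2.65 RPKM. Between them the log2 fold change was -0.25 (interval -0.52 to 0.025), which did not pass. Of all genes tested, 26.8% had both Glis3 knockdown libraries below both CD133 knockdown libraries. Cfap43 was the single gene of the 10 called in both knockdowns, at -0.73 with Glis3 shRNA and -0.48 with CD133 shRNA (log2 fold changes, SE 0.113 each).

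Cfap69 (chromosome 5: 5579278 to 5664239), a central pair protein known from mouse sperm flagella, measured 2.93 and 2.66 RPKM in control, 1.94 and 1.43 in the Glis3 knockdown, and 2.82 and 3.43 in the CD133 knockdown. It fell by 0.51 with Glis3 shRNA (SE 0.12) and had a log2 fold change of 0.12 with CD133 shRNA (interval -0.17 to 0.40). Like Rsph1, it was lowest in the Glis3 knockdown libraries and overlapped control in the CD133 knockdown, and the 2 knockdowns differed, by -0.62 for Cfap69 and -0.73 for Rsph1.

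Cfap70 (chromosome 14: 20394193 to 20452226), another axonemal protein, measured 1.61 and 1.26 RPKM in control, 1.05 and 0.98 in the Glis3 knockdown, and 1.47 and 1.49 in the CD133 knockdown. The Glis3 knockdown libraries were the lowest of the 6, but the log2 fold change of -0.27 (interval -0.50 to -0.04) did not pass. At these levels the + 1 in the scale pulls fold changes towards 0: by ratio of means, Cfap70 stood at 70.7% of control with Glis3 shRNA.

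The dynein assembly factors Dnaaf2 and Dnaaf3 did not share this pattern. Dnaaf2 (chromosome 12: 69189087 to 69198429) measured 4.32 and 4.90 RPKM in control, 4.84 and 5.57 in the Glis3 knockdown, and 4.59 and 4.17 in the CD133 knockdown. Dnaaf3 (chromosome 7: 4522933 to 4532453) measured 1.23 and 1.06 RPKM in control, 0.91 and 1.23 in the Glis3 knockdown, and 1.66 and 1.69 in the CD133 knockdown. Glis3 knockdown and control libraries overlapped for both, with log2 fold changes of 0.14 (interval -0.07 to 0.36) and -0.06 (interval -0.30 to 0.19). Dnaaf3 was the member with the largest positive value with CD133 shRNA, 0.32 (interval 0.07 to 0.57), which did not pass.

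Rfx2 and Rfx3 stayed apart from Foxj1 in these libraries. Rfx2 (chromosome 17: 56775897 to 56831013), which in mice is needed for sperm flagella, measured 4.32 and 4.16 RPKM in control, 4.02 and 3.37 in the Glis3 knockdown, and 4.36 and 4.25 in the CD133 knockdown. Rfx3 (chromosome 19: 27761721 to 28011166), which in mice is needed for cilia of the node and of pancreatic islets, measured 2.73 and 2.10, 2.13 and 2.61, and 2.04 and 2.16 RPKM in the same order. The Glis3 knockdown libraries lay just below control for Rfx2, and no groups were separate for Rfx3.

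Log2 fold changes with Glis3 shRNA were -0.16 for Rfx2 (interval -0.36 to 0.03) and -0.02 for Rfx3 (interval -0.29 to 0.26), so the intervals do not reach a fall of the size seen for Foxj1. With CD133 shRNA they were 0.02 (interval -0.18 to 0.21) and -0.13 (interval -0.41 to 0.14). Of all 7 Rfx family and partner genes tested, limma called 0 in either knockdown against control, where 12.9% and 11.8% of all genes tested were called. At an unadjusted p under 0.05, 1 was higher with Glis3 shRNA and 2 with CD133 shRNA, and of all genes tested 30.5% and 31.1% reached that level in either direction.

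**Figure D2:**
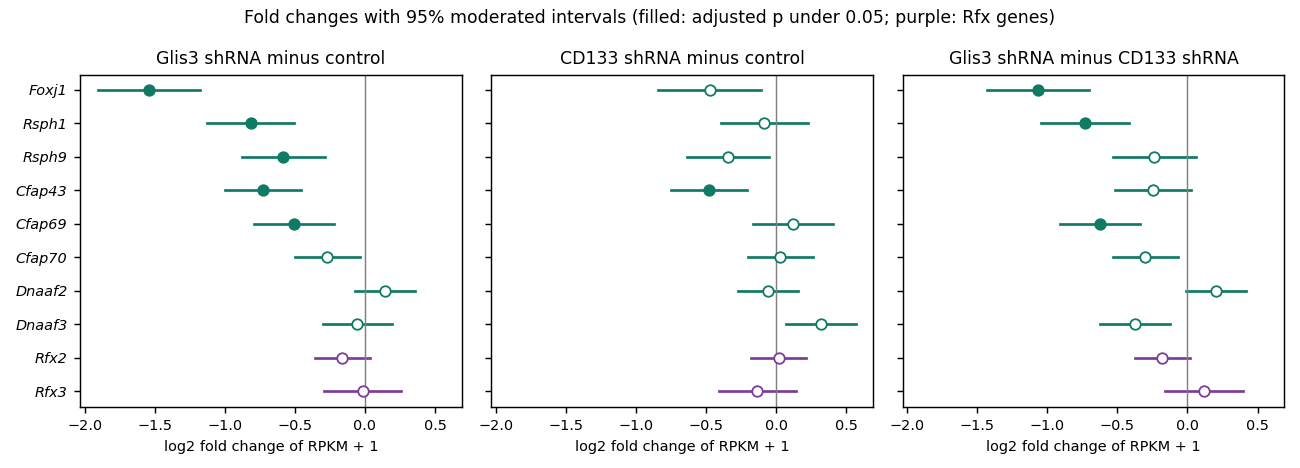
Log2 fold change of RPKM + 1 (horizontal axes) for each of the 10 genes in the 3 comparisons, with 95% moderated intervals. Filled points passed an adjusted p under 0.05 over all genes tested: 5 genes for Glis3 shRNA against control, 1 for CD133 shRNA against control and 3 for Glis3 against CD133 shRNA, with the Rfx pair (purple) open throughout.

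In all, 5 of the 10 genes fell in the Glis3 knockdown (Foxj1, Rsph1, Rsph9, Cfap43 and Cfap69), where 4.53% of the 10829 genes tested fell and 8.39% rose (491 and 909 genes, together 12.9%, or 712 and 576 with each library centred on its median). All 5 are among the 8 genes of the Foxj1 and axonemal group. Both Glis3 knockdown libraries lay below both controls for 7 of the 10, against 21.1% of genes tested. Those libraries lay above both controls for 0 of the 10, against 38.5%. In the CD133 knockdown 1 of 10 fell and 0 rose (limma; 3 lower and 1 higher at an unadjusted p under 0.05, beside 9.87% and 21.2% of all genes), against 3.64% and 8.16% (394 and 884 genes, or 612 and 559 with median centring, and 11.8% in either direction). Its libraries lay below both controls for 3 and above for 1, against 22.1% and 40.3%. Between the knockdowns 3 of 10 were lower with Glis3 shRNA (Foxj1, Rsph1 and Cfap69), against 2.46%, and the libraries were below for 7 and above for 1, against 26.8% and 27.9%. The genes were chosen with these results known, so the counts are set beside the background without further reading.

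The Glis3 calls rest on both control libraries. Without control library 1, 0 of the 10 genes were called by limma, with 5 at an unadjusted p under 0.05, and Foxj1 stood at -1.47. Of all genes, 0.194% were called and 23.8% had an unadjusted p under 0.05 in that fit. Without control library 3 the count was also 0, with 6 at an unadjusted p under 0.05 and Foxj1 at -1.62, beside 0.813% of all genes called and 24.5% at that level. Without Glis3 shRNA library 3, the lower of its pair for Foxj1, 3 were called, since Rsph9 (-0.41) and Cfap69 (-0.37) no longer passed. The 3 calls between the knockdowns became 0 when any control or CD133 shRNA library was left out (limma; 4 or 5 genes at an unadjusted p under 0.05), and 1 (Foxj1, -0.86) without Glis3 shRNA library 3. The call of Cfap43 in the CD133 knockdown was lost when either control library or CD133 shRNA library 1 was left out.

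Other motile cilium genes were taken from 5 lists, leaving out the 10. These lists, and those further below, were also chosen with earlier results of these data known. Their counts and p-values are therefore a description too, and no independent support for the falls of the 10. Of 126 listed genes, 45 had a value and 41 were tested. In the Glis3 knockdown 8 fell and 33 did not pass, or 19.5% lower against 4.53% of all genes, and 18 were lower and 2 higher at an unadjusted p under 0.05, beside 10.5% and 20% of all genes. Their median log2 fold change was -0.15, against 0.04 for all genes tested. Of the 41 genes, 4 were under 1 RPKM in both Glis3 knockdown libraries and in neither other group, so their place in the table rests on the groups where they were higher.

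The genes that fell belong to several parts of the axoneme. Cfap126, a protein of the doublet microtubules, measured 10.37 and 9.48 RPKM in control, 3.90 and 3.03 in the Glis3 knockdown, and 6.63 and 7.28 in the CD133 knockdown, with no overlap between groups. It fell by 1.30 with Glis3 shRNA (SE 0.105, adjusted p = 0.00387) and by 0.46 with CD133 shRNA (SE 0.105, adjusted p = 0.039). Nme5, a radial spoke protein, measured 10.69 and 9.11, 4.74 and 4.66, and 8.68 and 7.67 RPKM in the same order, and it fell by 0.93 with Glis3 shRNA (SE 0.09, adjusted p = 0.0052).

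Iqcg and Drc3, of the nexin-dynein complex, fell by 0.89 (adjusted p = 0.0134) and 0.34 (adjusted p = 0.0499) with Glis3 shRNA. Drc3, at 0.96 and 0.91 RPKM in the Glis3 knockdown, lost its call when any library was left out (adjusted p = 0.0692 to 0.182), with either other pseudocount, with no minimum level, with the 2 groups alone and under the replicate block. Enkur, a protein inside the doublet, fell by 0.75 (adjusted p = 0.0168). The inner arm dynein chain Dnali1 fell by 0.77 (limma, adjusted p = 0.0421), and Ttc12, a dynein assembly factor, by 0.52 (adjusted p = 0.0234). Dnali1 measured 1.94 and 1.35 RPKM in control and 0.64 and 0.44 in the Glis3 knockdown, or 32.8% of control by ratio of means. Its call was lost without either control or either Glis3 shRNA library (log2 fold change -0.94 to -0.61) and under the replicate block. Ttc12 lost its call without either control library, without Glis3 shRNA library 3 and under the block. Exons of Iqcg overlap those of Lrch3, and exons of Dnali1 those of Gnl2, on the opposite strand. By list, 1 of 7 axonemal dynein genes tested fell, 1 of 9 assembly factors, 1 of 8 spoke and central pair genes, 2 of 5 ruler and nexin genes and 3 of 12 genes of the doublet lumen and other Cfap proteins.

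In the CD133 knockdown Cfap126 was the 1 gene of the 41 that fell and 40 did not pass, a share of 2.44% against 3.64% of all genes, with a median of -0.02. Between the knockdowns 3 of the 41 were lower with Glis3 shRNA, 7.32% against 2.46%, among them Cfap126 (-0.84, adjusted p = 0.0171) and Nme5 (-0.69, adjusted p = 0.0182). The 8 falls with Glis3 shRNA became 0 when control library 1 was left out (14 at an unadjusted p under 0.05). They became 3 when control library 3 was left out and 4 when Glis3 shRNA library 3 was. Cfap126 and Nme5 were among the 3 called without control library 3. Without Glis3 shRNA library 1, 10 were lower and 1 (Mns1, named for this) was higher. The CD133 call of Cfap126 was lost without either control or either CD133 shRNA library, and between the knockdowns the count ran from 0 without CD133 shRNA library 1 (14 at an unadjusted p under 0.05) to 8 without Glis3 shRNA library 1, with 1 (Nme5 or Cfap126) without each other library.

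X-box letters were found in 12 of the 33 genes of these lists that were tested and had a promoter window, 36.4% against 9.6% of all tested genes with a window. Among the 8 that fell, the matches lie near the start site in Iqcg and Enkur and further upstream in Ttc12 and in 1 of 3 windows of Cfap126. The matched letters of these 4 genes are shown because they recur among genes that fell.
Iqcg, chromosome 16: gttgccatagctac
Enkur, chromosome 2: gtttccttagcaac
Ttc12, chromosome 9: gttgctttagcgac
Cfap126, chromosome 1: gtatccatggctac
Genes that were not called held matches of the same form, such as Nme7 on chromosome 1 (gttgccagagtaac) and Dnaaf5 on chromosome 5 (gttcccttggagac). Forkhead letters were found in 2 of the 33 genes, Cfap20 and Mlf1, neither of them called in the Glis3 knockdown.

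**Figure D3:**
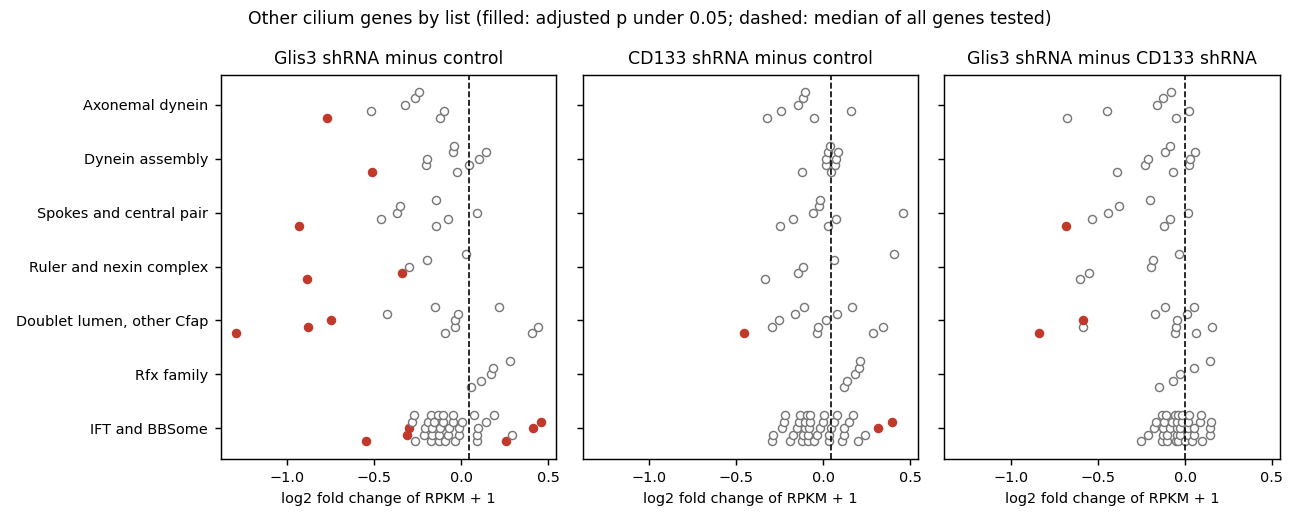
Log2 fold change of RPKM + 1 (horizontal axes) for cilium genes other than the 10, by list, in the 3 comparisons. Filled points passed an adjusted p under 0.05 and the dashed line is the median of all genes tested: in the Glis3 knockdown 8 motile cilium genes lie to the left as filled points, while intraflagellar transport genes have 3 on either side.

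Genes that motile cilia share with primary cilia were called in both directions in the Glis3 knockdown. Of 39 intraflagellar transport and BBSome genes tested, which build and supply every cilium, 3 fell and 3 rose. That is 7.69% each way, beside 4.53% and 8.39% of all genes. The list leaned lower, with 28 of the 39 below 0 and a median of -0.10, against 0.04 for all genes tested. At an unadjusted p under 0.05 (limma), 10 were lower and 5 higher, beside 10.5% and 20% of all genes. With CD133 shRNA 0 fell and 2 rose, beside 3.64% and 8.16%. Ttc30b fell by 0.55 (adjusted p = 0.0116), and Tulp3, a ciliary trafficking adaptor, rose by 0.46 (adjusted p = 0.0121). Ift27 rose in both knockdowns, by 0.41 with Glis3 shRNA (adjusted p = 0.00951) and by 0.40 with CD133 shRNA (adjusted p = 0.0151).

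Among upstream regulators of multiciliated cells, 9 of 18 listed genes had a value, 8 were tested and Foxj1 was the 1 that fell while 3 rose, beside 4.53% and 8.39% of all genes. The centriole kinase gene Plk4 rose by 0.56 (adjusted p = 0.0183), Cdk2 by 0.51 (adjusted p = 0.00944) and Tfdp1, a partner of E2F factors, by 0.26 (adjusted p = 0.028) in the Glis3 knockdown. Cdk2 also rose with CD133 shRNA, by 0.40 (adjusted p = 0.0209). Plk4 and Tfdp1 lay above both controls there too, with log2 fold changes of 0.305 and 0.142 that did not pass. These 3 genes also serve cell division.

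Of 18 markers of multiciliated cells, 6 had a value and the other 12 had none under the symbols searched, so they could not be analysed. Genes under 1 RPKM in every library are not listed. Foxj1, Rsph1 and Cfap126 fell in the Glis3 knockdown. Tppp3 measured 1.44 and 0.74 RPKM in control and 1.90 and 1.69 in the Glis3 knockdown, and Tmem212 measured 1.57 and 1.44 RPKM in control and 2.89 and 2.21. Tubb4b, a tubulin gene used by many cells, measured 220.72 and 221.16 RPKM in control and 238.34 and 255.27 in the Glis3 knockdown. Tppp3, Tmem212 and Tubb4b thus lay above both controls in the Glis3 knockdown, as did 38.5% of genes tested, and were not called. Tubb4b made up most of the summed level of the list, which was 273.3 to 281.53 RPKM in the Glis3 knockdown and 294.97 to 303.99 in control. Of 14 duct and progenitor markers, 2 rose with Glis3 shRNA (Nkx6-1 and Pdx1) and 12 did not pass, beside 8.39% of all genes rising. With CD133 shRNA 5 of the 14 rose (Krt19, Krt8, Sox9, Nkx6-1 and Cdh1) and 2 fell (the targeted Prom1, and Spp1), beside 8.16% and 3.64%. The part of these marker changes in the values of Foxj1, Cfap43 and Cfap126 was not tested.

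The genes whose pattern over the 6 libraries was closest to Foxj1 were sought among all 10829 tested, by the root mean square difference of log2 values centred on each gene's own mean. The 5 closest genes with assigned names were Cfap126 (difference 0.129), Chil1 (0.153), Igfbp7 (0.192), Icam1 (0.202) and Kif27 (0.206). Cfap126 is an axonemal gene of the lists above, and Kif27, a kinesin gene known from motile cilia, was on none of them. Chil1 encodes a secreted chitinase-like protein, Igfbp7 a secreted growth factor binding protein and Icam1 an adhesion molecule.

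Kif27 measured 6.05 and 5.30 RPKM in control, 2.30 and 1.90 in the Glis3 knockdown, and 3.80 and 4.31 in the CD133 knockdown, in the same order of groups as Foxj1 and with no overlap. Its log2 fold changes were -1.11 with Glis3 shRNA and -0.40 with CD133 shRNA, beside -1.54 and -0.48 for Foxj1. The + 1 in the scale pulls the values of Kif27 more towards 0. By ratio of means, Kif27 stood at 37% and 71.5% of control, beside 33.6% and 71.7% for Foxj1. Genes near Rfx2 were Trip10, Pcbp3 and Tollip (differences 0.017 to 0.023), and near Rfx3 Ubr1, Hook3 and Zfp516 (0.024 to 0.026), all with fold changes as small as those of the Rfx pair. These genes were selected for likeness, so their fold changes carry no test. Exons of Igfbp7 overlap those of Polr2b on the opposite strand.

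**Figure D4:**
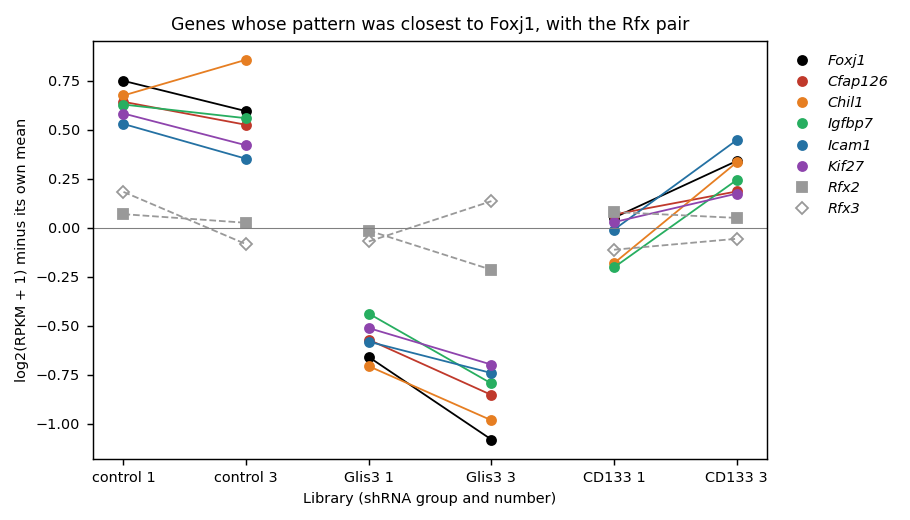
Log2(RPKM + 1) minus the gene's own mean (vertical axis) in the 6 libraries for Foxj1, the 5 genes closest to it and the Rfx pair (grey squares and diamonds), with lines joining the libraries of a group. Foxj1, Cfap126, Chil1, Igfbp7, Icam1 and Kif27 are high in control and low with Glis3 shRNA, while Rfx2 and Rfx3 stay near 0.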

How the data were processed

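The authors deposited 1 table of RPKM values for 11164 genes in 6 libraries, each reaching at least 1.00 RPKM in 1 library or more. Per the submitters' processing notes, bcl2fastq 2.18.0.12, TopHat2, HTSeq and build mm10 were used; their order, settings, annotation and strand use are not stated. Columns were matched to samples by the names in the sample descriptions.

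Here, log2(RPKM + 1) was fitted without further scaling by limma 3.58.1 in R 4.3.3 (3 group means, variance trend, 3 residual and 3.69 prior degrees of freedom) for the 10829 genes averaging 1 RPKM or more. Tests were two-sided, adjusted by Benjamini-Hochberg over all genes tested, with a threshold of 0.05. The fit was tested on simulated data. Depth was read from genes with 1 GENCODE M21 transcript under 1200 bases, where 56.8% to 62.6% of values lay within 0.15 of a whole read (chance gives 30%). Transcript lengths of the authors are not known, so counts were not recovered.

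Members and lists were chosen with earlier results of these data known. Named were all members, up to 4 called genes per list (or the 2 with the smallest p), the genes most like Foxj1, Rfx2 and Rfx3, the targets and markers. Not every gene so named is printed, 1 called gene of the lists is counted but not reported here, and Nme7, Dnaaf5, Cfap20 and Mlf1 were chosen after their promoter matches were seen. Promoter sequences are RefSeq's.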

Additional observations from a re-analysis of the deposited data

How the results depend on the processing

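Signs of the called members held under every alternative run, and with Glis3 shRNA against control 5 members were called under both other pseudocounts, without a minimum, with median centring, with quantile normalization, without a variance trend and with the 2 groups alone. A minimum mean of 5 RPKM, which leaves few members in the fit, gave 2, 0 and 1 called members with Glis3 shRNA, with CD133 shRNA and between the knockdowns, and 2 other motile cilium genes with Glis3 shRNA. With only the 2 groups in the fit, 3 members were called with CD133 shRNA (Foxj1 and Rsph9 as well as Cfap43), and 0 members (5 at an unadjusted p under 0.05) and 1 other motile cilium gene between the knockdowns.

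With the replicate number as a block, 3 members and 5 other genes were called with Glis3 shRNA, 0 members and 0 other genes with CD133 shRNA (4 and 6 at an unadjusted p under 0.05), and 0 members between the knockdowns (5 at an unadjusted p under 0.05). Deviations of same-numbered libraries correlated at -0.372 for control and Glis3 shRNA, -0.428 for control and CD133 shRNA and 0.032 for the knockdowns. With 2 libraries per group, these values cannot decide whether the numbers pair the libraries. With crossed numbers, chosen after seeing the data, 4 members and 9 other genes were called with Glis3 shRNA, and 1 and 1 with CD133 shRNA.

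Leaving out each library in turn gave 0 to 5 called members and 0 to 11 other genes with Glis3 shRNA, 0 to 3 and 0 to 1 with CD133 shRNA (where the counts were 0, 1 to 2 members and 2 to 7 other genes at an unadjusted p under 0.05), and 0 to 3 and 0 to 8 between the knockdowns. The log2 fold change of Foxj1 with Glis3 shRNA ranged from -1.75 to -1.33. Where a group is left with 1 library, it is assumed to vary like the others, and the fit has 1 residual degree of freedom fewer. Median centring moved the background with Glis3 shRNA from 491 lower and 909 higher genes to 712 and 576, and with CD133 shRNA from 394 and 884 to 612 and 559, while the calls of the members did not change and those of other motile cilium genes with Glis3 shRNA went from 8 to 12 (11 with quantile normalization, 10 without a variance trend, and 7 with either other pseudocount or without a minimum). Over all genes, lower and higher calls with Glis3 shRNA were 198 and 410 under the block and 9 and 12 without control library 1, 38 and 50 without control library 3, and 168 and 340 without Glis3 shRNA library 3. With CD133 shRNA they were 104 and 231 under the block, 0 and 0 without control library 1 or 3 (limma; 2444 and 2672 genes at an unadjusted p under 0.05), 9 and 15 without CD133 shRNA library 1, and 212 and 293 without library 3. Between the knockdowns 266 and 174 became 32 and 26 with the 2 groups alone, 51 and 28 under the block, and 16 and 9 to 470 and 273 over the libraries left out. Apart from these construction effects, the cause of lost calls was not tested. Depth is estimated, and Dnaaf3 rests on the fewest reads, 55 to 103 per library.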
